A study of Mus musculus with 2 samples.

Results

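The levels of 8 transcription factors that define hepatocytes, the main cells of the liver, were compared in RNA from mouse liver: Hnf4a, Foxa1, Foxa2, Foxa3, Cebpa, Onecut1, Prox1 and Nr5a2. They are a list drawn up with earlier results of these data known, with no threshold on their values, and each matched 1 row of the deposited table, 8 of 36771 rows in all. The table held 1 library labelled WT and 1 labelled SRSF2-KO (below, the WT-labelled and the KO-labelled library), both made from the livers of 5-month-old BALB/c mice. Per the study's design text the SRSF2-KO mouse carried a liver-specific deletion of Srsf2, which codes for an RNA-binding SR protein that guides splice site choice. The sources used here do not give the Cre driver, the deleted part of the gene or how many animals each library holds. With 1 library per genotype no test was possible, and every difference below is one between those libraries. The question was whether the regulators of hepatocyte identity were at the same level in both genotypes.

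Hepatocyte identity is held by a network of DNA-binding proteins that bind together at liver enhancers and at each other's genes. FOXA1, FOXA2 and FOXA3 are forkhead proteins, of which FOXA1 and FOXA2 are known as pioneer factors that open chromatin when the liver is specified. HNF4A, a nuclear receptor, is required for the adult hepatocyte programme, and C/EBP alpha (Cebpa) for metabolic maturation and for restraint of growth. ONECUT1 (HNF6), PROX1 and the nuclear receptor NR5A2 (LRH-1) act in liver budding, in hepatoblast migration and in bile acid and sterol control.

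The level of Srsf2, the targeted gene, went against its label: 45.3 FPKM in the KO-labelled library and 38.2 FPKM in the WT-labelled library. The labels may be exchanged, or the deleted part of the gene may leave its fragments in the count; neither was tested. If the labels were exchanged, every direction and every order by ratio below would turn. FPKM are fragment counts scaled to transcript length and library depth, so they can be compared between genes. Depth, estimated from the steps in low values, was 24300000 fragments in the KO-labelled library and 19400000 in the WT-labelled one. The deposited FPKM summed to 523254 and 666262, so ratios carry an offset that depends on scaling. The ratio used here is log2((SRSF2-KO + 1)/(WT + 1)) of FPKM, above 0 where the KO-labelled library was higher. Over the 11401 symbols that reached 1 FPKM in at least 1 library (the measured genes), its median was -0.04 and its quartiles were -0.30 and 0.25. Rescaling to TPM (the same sum in each library) moved the median of all genes to 0.27. For this reason each factor is also placed among all genes of the same libraries.

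All 8 factors were present in both libraries, and none was 2-fold or 1.5-fold apart on the deposited scale. Prox1 passed 1.5-fold, but not 2-fold, with TPM (log2 ratio 0.74) and with equal sums outside the 50 top rows (0.67). Of all 11401 measured genes, 8.67% were at least 2-fold apart and 21.8% at least 1.5-fold apart. The log2 ratios of the 8 factors ran from -0.41 (Hnf4a) to 0.39 (Prox1) around a median of -0.12, and 65.1% of all measured genes lay no farther from 0 than the farthest of them. Genes that reached 5 FPKM in both libraries, as all 8 factors did, had a median of -0.14, and 5.38% of these 5968 genes were at least 2-fold apart. A count of 0 among 8 genes is therefore near what the background gives.

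**Figure D1:**
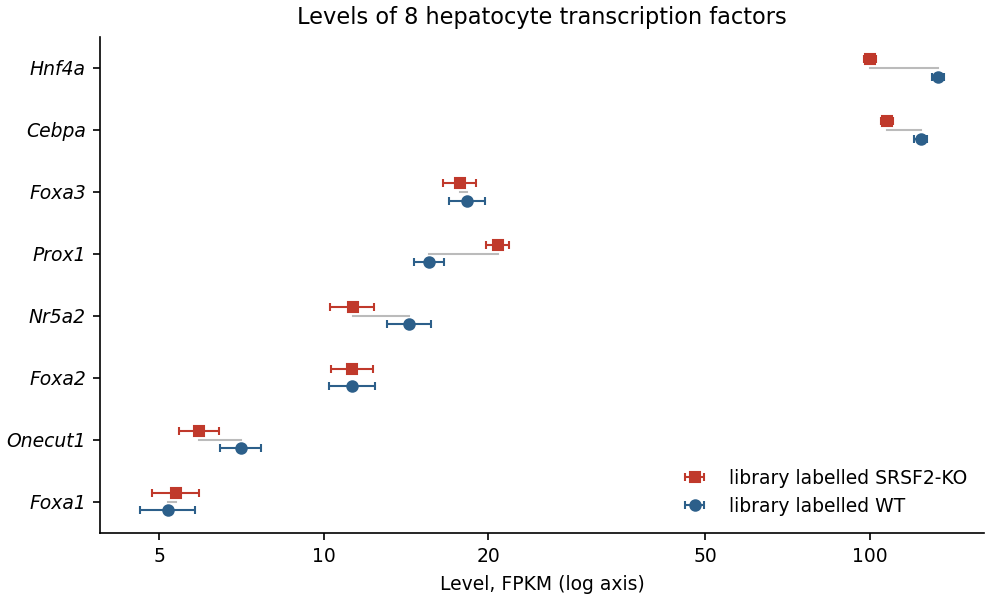
Level of each factor in FPKM (log axis) in the KO-labelled library (red squares) and the WT-labelled library (blue circles). Bars are 95% exact Poisson intervals of the estimated fragments, which cover counting error only. The intervals of the 2 libraries overlap for Foxa1, Foxa2 and Foxa3 and lie apart for the other 5 factors.

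Hnf4a and Cebpa, the nuclear receptor and the bZIP factor of the mature programme, were the most abundant of the 8. Hnf4a stood at 100.1 FPKM in the KO-labelled library and 133 FPKM in the WT-labelled library. The KO to WT ratio was 0.752. Its 95% Clopper-Pearson (exact) interval ran from 0.726 to 0.780 and, like every interval below, reflects counting error and not the spread between mice. Hnf4a was the lowest of the 8 in its ratio, at percentile 17.9 of all measured genes, and its log2 ratio stayed below 0 under the 3 rescalings tried, between -0.26 and -0.06. Cebpa stood at 107.6 FPKM against 124 FPKM, a ratio of 0.870 (0.838 to 0.903) at percentile 33.6. Its log2 ratio of -0.20 became 0.15 with TPM and 0.08 when the sums were made equal leaving out the 50 most abundant rows (below, equal sums), so its direction depends on scaling.

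Both genes held about the same place in each library. Hnf4a ranked 639 of 11401 in the KO-labelled library and 598 in the WT-labelled library, and Cebpa ranked 600 and 644. Cebpa was the higher of the pair in the KO-labelled library and Hnf4a in the WT-labelled library. The Hnf4a to Cebpa ratio within a library, which no rescaling can move, was 0.930 and 1.07, respectively. In both libraries the 2 genes stood well above the other 6, with 74.1% of the summed FPKM of the 8 factors in the KO-labelled library and 78.2% in the WT-labelled library.

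The FoxA genes had the smallest differences of the 8 on the deposited scale, an order that does not hold under the rescalings, where Cebpa and Onecut1 were closer to equal than any of the FoxA genes. Foxa3, the most abundant of the forkhead genes listed, stood at 17.7 FPKM in the KO-labelled library and 18.3 FPKM in the WT-labelled library, a ratio of 0.968 (0.873 to 1.08). Foxa2 stood at 11.3 FPKM in both, a ratio of 1.001 (0.876 to 1.14). Foxa1, the lowest of the 8 factors in both libraries, stood at 5.36 against 5.18 FPKM, a ratio of 1.03 (0.887 to 1.20). All 3 intervals include equal levels on the deposited scale and reach no farther than 0.873 and 1.20. Their percentiles among all genes, 49.5, 54.0 and 57.9, sat near the middle. Their log2 ratios were between 0.10 and 0.36 under the 3 rescalings, where the median of all genes was between 0.09 and 0.27.

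The make-up of the FoxA family was also close. Foxa3 gave 51.6% of the summed FoxA FPKM in the KO-labelled library and 52.7% in the WT-labelled library. Foxa2 gave 32.8% and 32.4%, and Foxa1 gave 15.6% and 14.9%. The order Foxa3, Foxa2, Foxa1 thus held in both libraries. Read sharing between these relatives had little room: 3 of the 3156 distinct 36-base words of the Foxa1 transcripts were found in Foxa2, 0 of the 2002 words of Foxa3 were found in another gene, and with words of 50 bases none of the 3 genes shared any.

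Prox1, the prospero homeobox factor, went the other way from Hnf4a. It stood at 20.8 FPKM in the KO-labelled library and 15.6 FPKM in the WT-labelled library, a ratio of 1.33 (1.23 to 1.45). It was the only one of the 8 that was higher in the KO-labelled library with a counting interval above 1, and it stayed higher under the 3 rescalings (log2 ratio 0.54 to 0.74). It lay at percentile 82.4 of all measured genes and ranked 2483 against 3257. PROX1 is known as a corepressor that binds HNF4A and NR5A2. Hnf4a exceeded Prox1 by 4.81-fold in the KO-labelled library and by 8.52-fold in the WT-labelled library. Prox1 is also made by lymphatic endothelium. Of 6 lymphatic markers, Pdpn and Ccl21a were listed at 0 in both libraries, Flt4, Lyve1 and Reln were measured, and the 6 summed to 12.2 FPKM in the KO-labelled library and 15.2 FPKM in the WT-labelled library. Flt4, Lyve1 and Reln are also made by other liver cells, and the part of lymphatic endothelium in the Prox1 level was not tested.

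Nr5a2 stood at 11.3 FPKM in the KO-labelled library and 14.3 FPKM in the WT-labelled library. Its ratio was 0.788 (0.691 to 0.898), at percentile 23.6 of all genes. The Prox1 to Nr5a2 ratio within a library was 1.84 in the KO-labelled library and 1.09 in the WT-labelled library. Nr5a2 is also a gene of the exocrine pancreas. Of 10 pancreas markers 7 were listed at 0 in both libraries (among them Cpa1, Prss1, Pnlip and Ptf1a), and only Cela1 passed 1 FPKM, at 5.24 against 13.2 FPKM; the part of such cells in the Nr5a2 level was not tested.

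Onecut1, a homeobox factor, stood at 5.92 FPKM in the KO-labelled library and 7.05 FPKM in the WT-labelled library, a ratio of 0.839 (0.742 to 0.948) at percentile 31.8. Its log2 ratio of -0.22 turned to 0.09 with TPM and 0.03 with equal sums, and that of Nr5a2 went from -0.32 to 0.00 and -0.05. Onecut1 shares 52.8% of its exonic bases in the GENCODE M21 annotation with Gm20649, a noncoding gene on the same strand. Gm20649 was at 0.107 FPKM in the KO-labelled library and 0 in the WT-labelled library, and the sources used here do not say how shared fragments were assigned. Prox1 and Cebpa overlap antisense genes over 1.59% and 1.93% of their exonic bases, and the strandedness of the libraries is not given either.

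The order of levels was nearly the same in the libraries. In the WT-labelled library it ran Hnf4a, Cebpa, Foxa3, Prox1, Nr5a2, Foxa2, Onecut1, Foxa1. In the KO-labelled library Cebpa and Hnf4a changed places, as did Prox1 and Foxa3. Of the neighbours in this order, the counting intervals overlapped for Nr5a2 and Foxa2 and for Onecut1 and Foxa1 in the KO-labelled library, and for Prox1 and Nr5a2 in the WT-labelled library. The widest step was the one below the leading pair, 4.81-fold in the KO-labelled library and 6.75-fold in the WT-labelled library.

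**Figure D2:**
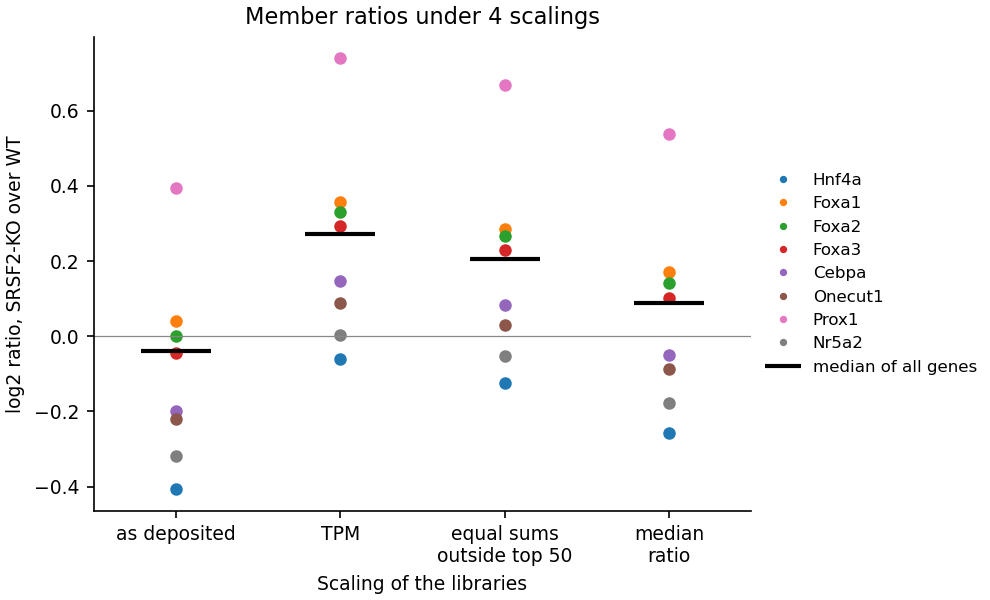
Log2 ratio of each factor on the deposited scale and under 3 rescalings of the libraries, with the median of all measured genes as a black bar. Rescaling moves the factors and the median together: Prox1 lies 0.43 to 0.47 above the median of all genes in the 4 columns and Hnf4a 0.33 to 0.37 below it.

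The table gives 1 value per gene, not per start site or isoform. Hnf4a has 2 start sites in RefSeq, 40.3 kb apart; in mice the downstream one is known as the adult hepatocyte promoter and the upstream one for its use in fetal liver and pancreas. The stretches before both starts are shown because the table gives 1 value for Hnf4a and does not separate them. They come from RefSeq (build GRCm38.p6, plus strand, chr2:163506607-163506807 and chr2:163546943-163547154), without bases that GENCODE M21 places in exons, and capitals mark a match to the ONECUT motif.
Hnf4a, upstream start: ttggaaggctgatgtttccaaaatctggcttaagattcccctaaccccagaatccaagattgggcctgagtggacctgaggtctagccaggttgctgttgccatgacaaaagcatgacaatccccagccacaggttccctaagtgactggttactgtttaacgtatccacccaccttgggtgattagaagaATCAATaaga
Hnf4a, downstream start: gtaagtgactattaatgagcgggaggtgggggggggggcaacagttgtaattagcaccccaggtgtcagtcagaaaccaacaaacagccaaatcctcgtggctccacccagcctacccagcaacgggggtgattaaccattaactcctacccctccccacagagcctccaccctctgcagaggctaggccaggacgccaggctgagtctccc

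Because these factors are known to bind each other's genes, matches to 5 short motifs are given on both strands in the 13 RefSeq promoter windows of the 8 genes, each from 250 bases before a start to 50 after it. The letters were CAAAGTCCA for HNF4, TGTTTAC for FOXA, TTGCNNAA for C/EBP, ATTGAT for ONECUT and CAAGGTCA for NR5A2. Matches were found in 4 windows, 1 in each and none overlapping another. The ONECUT letters, present in 7.54% of all 32851 promoter windows, were in the upstream Hnf4a window and in 1 Foxa2 window. In mice ONECUT1 is known to activate both genes. The FOXA letters (3.65% of windows) were in the Foxa1 window and the C/EBP letters (10.8%) in 1 Nr5a2 window. The HNF4 (0.475%) and NR5A2 (1.56%) letters were in none of the 13. The stretches around the other matches follow, with the match in capitals, from chr2:148047143-148047212, chr12:57546213-57546282 and chr1:136953834-136953880 (GRCm38.p6, all on the minus strand).
Foxa2, ONECUT letters: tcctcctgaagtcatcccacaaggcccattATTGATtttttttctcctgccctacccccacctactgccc
Foxa1, FOXA letters: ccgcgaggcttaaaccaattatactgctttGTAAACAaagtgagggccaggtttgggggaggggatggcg
Nr5a2, C/EBP letters: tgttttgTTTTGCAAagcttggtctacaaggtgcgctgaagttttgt

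The ratios of all genes whose promoter held these letters were also described. Of the measured genes, 7993 had a promoter window, with a median log2 ratio of -0.05. Of these genes 54.8% lay below 0 and 6.93% were at least 2-fold apart. The 258 genes with the FOXA letters had a median of -0.11, with 60.5% below 0 and 8.14% at least 2-fold apart. For the 838 genes with the C/EBP letters the median was -0.06, with 56.2% below 0 and 9.90% at least 2-fold apart. The 410 genes with the ONECUT letters had a median of -0.11, and 61.7% lay below 0 and 9.27% were at least 2-fold apart. For the 106 genes with the NR5A2 letters these values were -0.10, 54.7% and 5.66%. The 48 genes with the HNF4 letters had a median of -0.17, with 60.4% below 0, and 8 of them (16.7%) were at least 2-fold apart. These shares were not tested.

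Other liver transcription factors spread more widely than the 8. Of a list of 41, 40 were measured, with a median log2 ratio of -0.25. Below 0 were 32 of them, beside 53.9% of all measured genes, and 4 were at least 2-fold lower in the KO-labelled library, beside 3.22% of all genes. With TPM the list's median became 0.08 and 17 lay below 0, and 1 was at least 2-fold lower, but 30 of 40 lay below the median of all genes on that scale as on the deposited one. None was at least 2-fold higher on the deposited scale, beside 5.46% of all genes, and 1 was under each of the 3 rescalings.

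The lowest were Cebpb (43.8 FPKM in the KO-labelled library against 118 FPKM in the WT-labelled library), a C/EBP factor of the acute phase, and Ppara (25.2 against 64.4 FPKM), the fatty acid receptor. Cebpd (5.27 against 13.0 FPKM) and Nr1i3 (30.1 against 61.9 FPKM), the xenobiotic receptor CAR, followed. These 4 had log2 ratios from -1.41 to -1.01. Rxra, the shared partner of many nuclear receptors, stood at 68.9 against 114 FPKM, and Nr1h4, the bile acid receptor FXR, at 49.5 against 75.3 FPKM. Gata4, a zinc finger factor of liver development, was at 7.21 against 5.18 FPKM.

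**Figure D3:**
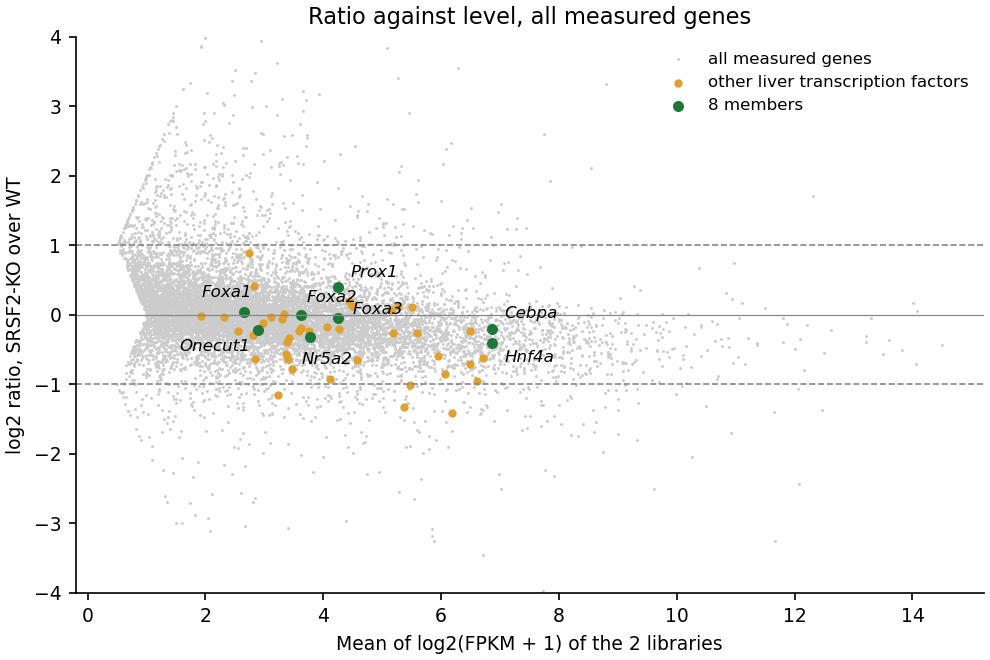
Log2 ratio (SRSF2-KO over WT) against mean log2(FPKM + 1) for all measured genes (grey), the other liver transcription factors (orange) and the 8 factors (green), with dashed lines at 2-fold. The 8 factors lie between -0.41 and 0.39 across the range of levels, while 4 of the other factors lie below the lower line. The plot leaves out 28 genes beyond its vertical range.

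Family relatives of the 8 factors showed where a paralog was present. Hnf4g (0.0436 against 0.0272 FPKM), Prox2 (0.281 against 0.415 FPKM), Onecut3 and Nr5a1 (both listed at 0) stayed under 1 FPKM in both libraries, so none of the listed paralogs of Hnf4a, Prox1 and Nr5a2 passed that level. Onecut2 was at 7.53 FPKM in the KO-labelled library and 7.77 FPKM in the WT-labelled library, above Onecut1 in both. In the WT-labelled library their counting intervals overlapped (7.46 to 8.08 FPKM for Onecut2 and 6.46 to 7.69 FPKM for Onecut1). Within the C/EBP family the members stood apart from each other: Cebpa had a ratio of 0.870, Cebpb of 0.372 and Cebpd of 0.407, while Cebpg, a partner without an activation domain, was at 8.69 against 9.10 FPKM. Cebpe was at 4.84 against 6.41 FPKM and Ddit3, the stress-induced member CHOP, at 5.41 against 6.94 FPKM.

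Of 16 forkhead genes outside the FoxA group, 12 were measured, with a median log2 ratio of -0.27. Their lowest ratios were those of Foxo3 (7.44 against 13.5 FPKM), Foxo1 (7.46 against 12.2 FPKM), mediators of fasting and insulin responses, and Foxn3 (6.86 against 10.7 FPKM). Foxp4 was highest, at 11.9 against 7.03 FPKM. None of the 12 was 2-fold apart on the deposited scale, beside 8.67% of all measured genes. For so few genes that is near what the background gives. With TPM 1 of the 15 measured forkhead genes, FoxA group included, was at least 2-fold higher.

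Coregulators that such factors recruit lay around the median of all genes. All 18 on the list were measured, 9 above and 9 below 0, with a median log2 ratio of -0.03 and none past 2-fold on the scale with the pseudocount. The lowest were Ppargc1b (1.99 against 3.99 FPKM, a ratio of 0.499 without the pseudocount) and Ppargc1a (1.64 against 2.78 FPKM), PGC-1 coactivators of energy metabolism. Above 0 were, among others, the histone demethylase gene Kdm1a (4.69 against 3.67 FPKM) and the histone deacetylase gene Hdac3 (14.2 against 11.7 FPKM). Nr0b2 (SHP), a corepressor that acts on HNF4A and NR5A2, was at 39.4 against 35.9 FPKM.

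Known target genes of the factors were compared next. Of 21 genes known as HNF4A targets, 19 lay below 0 and 7 were at least 2-fold lower in the KO-labelled library, beside 53.9% and 3.22% of all measured genes. The median was -0.65 beside -0.04 for all genes. G6pc, the glucose-6-phosphatase of gluconeogenesis, was lowest at 34.7 against 133 FPKM, followed by Pck1 at 280 against 927 FPKM. The bile acid uptake carrier gene Slc10a1 (152 against 452 FPKM) and the fatty acid binding protein gene Fabp1 (3505 against 9030 FPKM) came next. On the other side, Apoa4 stood at 99.6 against 62.4 FPKM and Cyp7a1, which starts bile acid synthesis, at 36.4 against 23.9 FPKM. With TPM the median was -0.32, and 4 were at least 2-fold lower and 1 at least 2-fold higher. On that scale too, 19 of the 21 lay below the median of all genes.

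The other target lists overlap with this one: of 38 target genes, 13 stand in more than 1 list. G6pc and Pck1 stand in the HNF4A, FoxA, C/EBP alpha and ONECUT1 lists. Ttr stands in the HNF4A, FoxA and ONECUT1 lists, and Tat in the FoxA and C/EBP alpha lists. Each of these genes was at least 2-fold lower on the deposited scale, so the counts and medians of these lists rest in part on the same genes. Of the 10 C/EBP alpha targets, 9 were measured, with a median of -0.74 and 4 at least 2-fold lower (3.22% of all genes were), among them the glycogen synthase gene Gys2 (60.4 against 165 FPKM). Hp, the haptoglobin gene, was the only one above 0, at 2117 against 1800 FPKM. Of 8 FoxA targets, 7 were measured, with a median of -1.07 and 4 at least 2-fold lower (2 with TPM), beside the same 3.22%. Tat, the tyrosine aminotransferase, was at 336 against 780 FPKM, whereas Igfbp1 stood at 39.2 against 38.3 FPKM. Afp, also in the FoxA list, was at least 2-fold higher at 2.11 against 0.409 FPKM, beside 5.46% of all genes. Alb, the albumin gene, belongs to the FoxA and C/EBP alpha lists and was listed at 0 in both libraries. Since every liver makes albumin, that row may be a failed estimate and no value is read from it.

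Targets of NR5A2 and ONECUT1 were split. Of 13 NR5A2 targets 7 lay below 0, near the share of all genes (53.9%), with a median of -0.27 that turned to 0.07 with TPM. The lowest were Gnmt (595 against 1161 FPKM), a methyltransferase of the methionine cycle, the glutaminase gene Gls2 (116 against 205 FPKM) and Cyp8b1 (55.2 against 94.9 FPKM), which makes cholic acid. Abcb11 (110 against 93.9 FPKM), the bile salt export pump, and Cyp7a1 were above 0, as was the fetal gene Afp (2.11 against 0.409 FPKM). Of 6 ONECUT1 targets, G6pc, Pck1 and Ttr (2938 against 6190 FPKM) lay at least 2-fold lower on the deposited scale, beside 3.22% of all genes. Cyp7a1 and Afp were among the 3 above 0, and the list had a median of -0.37. This median was -0.024 with TPM, -0.087 with equal sums and -1.07 where Afp fails a stricter filter on low values. The activity of the factors was not measured, and a target's level also depends on other regulators.

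**Figure D4:**
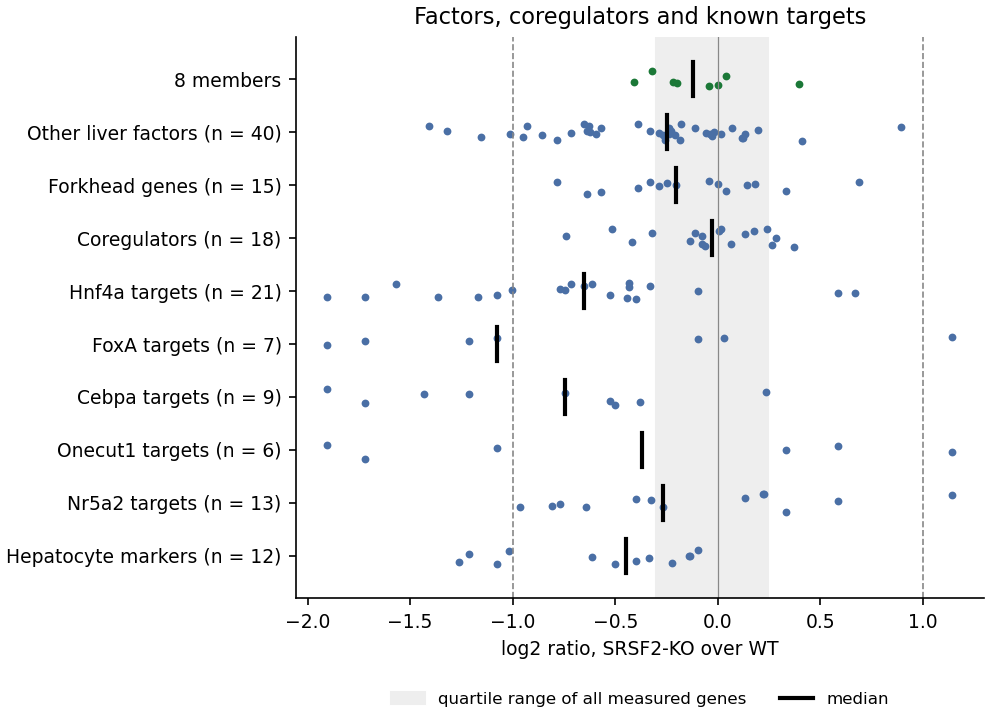
Log2 ratio (SRSF2-KO over WT) of each measured gene of the lists (points, spread vertically for legibility), with the list's median (black bar), the range between the quartiles of all measured genes (grey band) and 2-fold lines (dashed). The 8 factors have a median of -0.12, the HNF4A targets of -0.65 and the C/EBP alpha targets of -0.74.

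Markers of liver cells differed beside these results. Of 13 hepatocyte markers 12 were measured, all below 0 on the deposited scale, beside 53.9% of all genes, with a median of -0.45. The 13 summed to 26387 FPKM in the KO-labelled library and 36377 FPKM in the WT-labelled library. Alb, the marker not measured, adds nothing to either sum because its row, possibly a failed estimate, is listed at 0. With TPM 7 of the 12 lay below 0, and all 12 lay below the median of all genes on both scales. In whole liver, fewer hepatocytes and less RNA per hepatocyte cannot be told apart. Bile duct cells also make Foxa1, Foxa2 and Onecut1. Of 11 bile duct markers 7 were measured, 5 at least 2-fold higher, beside 5.46% of all genes. The list summed to 297 against 31.0 FPKM, most of it Spp1 (266 against 21.9 FPKM). The defining keratin genes Krt19 (0.426 against 1.10 FPKM) and Krt7 (0.301 against 0.388 FPKM) were low in both libraries.

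Myeloid cells make Cebpa. The 9 myeloid markers summed to 128 FPKM in the KO-labelled library and 69.4 FPKM in the WT-labelled library. Above 0 were 6 of them, with Lyz2, the largest part of both sums, highest at 69.3 against 23.6 FPKM. Below 0 were 3, beside 53.9% of all genes: Emr1 (2.17 against 4.33 FPKM), Csf1r (10.3 against 11.6 FPKM) and Cebpe (4.84 against 6.41 FPKM). Stellate cell markers summed to 191 against 95.6 FPKM over 8 genes, most of it Dcn (128 against 82.7 FPKM). Of these genes 4 were at least 2-fold higher, beside 5.46% of all genes, and the list's median log2 ratio was 1.20. Col1a1 was highest in ratio, at 11.1 against 0.622 FPKM. Lrat was the only 1 of these 8 below 0, at 1.48 against 2.76 FPKM. Sinusoidal endothelial markers summed to 51.5 against 121 FPKM over 7 genes. The part of these other cells in the levels of the 8 factors was not tested.

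By likeness of level, the genes nearest to each factor were looked for among 71 regulators on the lists. Likeness was the distance on log2(FPKM + 1) over the 2 libraries, a narrow base. Srebf1 was nearest to Hnf4a (distance 0.25) and to Cebpa (0.36), and Creb3l3 and Atf5 came second. Nfib was nearest to Nr5a2 (0.06), Tbx3 to Onecut1 (0.13), Nr1h2 to Foxa3 (0.12), Smarca4 to Foxa2 (0.13) and Med1 to Foxa1 (0.17). Zbtb20 was nearest to Prox1 at a distance of 0.30, with 22.3 against 19.3 FPKM, followed by Hhex with 22.5 against 20.6 FPKM.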

How the data were processed

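Liver RNA was sequenced on an Illumina HiSeq2000 as 1 library per genotype, per the labels. Trizol was used for extraction, per the labels' protocols. The submitters' processing notes name Bowtie 0.12.2 and build mm9 of the mouse genome. The authors deposited FPKM, with 1 value for each gene row in each library. The sources used here do not give the program behind these values, its annotation, the strandedness or any filters.

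Columns were assigned to libraries by name. Each symbol kept its row with the highest mean, and 11401 of 34556 symbols had at least 1 FPKM in at least 1 library. Ratios used a pseudocount of 1. Depth was fitted (Python 3.11.15, numpy 2.4.6, scipy 1.17.1) on genes that have only 1 transcript in GENCODE M21, 1000 to 8000 bases long, and took a length offset of 180 bases. Among values equal to 1 to 3 fragments, 71.7% (470 values) in SRSF2-KO and 74.9% (435 values) in WT came within 0.1 of a whole number. Fragments per gene for the counting intervals used the median protein-coding transcript length, from an annotation that may differ from the authors'. The scripts were tested on simulated data. GENCODE M21 and the RefSeq promoters belong to GRCm38, not mm9, and 3 list symbols were looked up under an older name.

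The factors and the lists (16 fixed lists) were chosen with earlier results of these data known. Named genes are the 8 factors, Srsf2, the family relatives, up to the 4 highest and 4 lowest measured genes of each list and the 2 nearest list genes of each factor. Other list genes (Rxra, Nr1h4, Ttr, Nr0b2, Abcb11 and undetected markers among them) are named for their roles, after their values were seen. The values of some list members and of 1 searched motif are not reported here.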

Additional observations from a re-analysis of the deposited data

How the results depend on the processing

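Scaling was the choice that moved the ratios, since it shifts the KO-labelled library against the WT-labelled one by 0.35 (TPM), 0.29 (equal sums outside the 50 most abundant rows) or 0.15 (median ratio of genes with at least 5 FPKM in both) on the log2 scale. With TPM the log2 ratios were -0.062 for Hnf4a, 0.36 for Foxa1, 0.33 for Foxa2, 0.29 for Foxa3, 0.15 for Cebpa, 0.087 for Onecut1, 0.74 for Prox1 and 0.0042 for Nr5a2. With equal sums they were -0.12, 0.29, 0.27, 0.23, 0.084, 0.029, 0.67 and -0.054 in the same order. With the median ratio the values outside the counting interval were -0.26 for Hnf4a, -0.049 for Cebpa and 0.54 for Prox1. The median of the 8 factors was 0.22 with TPM and 0.16 with equal sums, and that of the other liver factors 0.078 and 0.017. The target medians with TPM and equal sums were -0.32 and -0.38 for HNF4A, -0.73 and -0.79 for FoxA, -0.40 and -0.46 for C/EBP alpha, -0.024 and -0.087 for ONECUT1 and 0.074 and 0.012 for NR5A2. At 5 FPKM in at least 1 library, and at 1 FPKM in both, the ONECUT1 median was -1.07, because Afp leaves the list. Pseudocounts of 0.1 and 3, no filter on low values, summed rows of a symbol and the longest transcript moved no factor's ratio or interval by more than counting error. Medians of lists have no counting interval of their own. They moved by no more than 0.16 on the log2 scale, the median half-width of the 8 factors' intervals, which is only a stand-in. None of the 8 factors was 2-fold apart under any of these settings. No paired analysis was possible because each genotype has 1 library. Counting error was widest for the ratios of Foxa1, Foxa2 and Nr5a2, and no setting stands in for replicate mice.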
